A study of Arabidopsis thaliana with 8 samples.

Results

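A group of 160 Arabidopsis thaliana genes was higher in bin2-1 roots than in wild-type roots, stayed high when bzr1-D was added to bin2-1, and was about level in wild-type roots with and without ABA. The genes were chosen by 3 ratios of group values, each with 0.1 FPKM added to both values. FPKM counts sequenced fragments scaled by transcript length and by the size of the library. The ratio of bin2-1 over wild type had to be at least 3. The ratios of bzr1-D/bin2-1 over bin2-1 and of ABA-treated over untreated wild type each had to lie within 1.5-fold of 1, and at least 1 of the 6 group values had to reach 5 FPKM. The rule found 160 of the 33557 genes in the tables, 15705 of which reached 5 FPKM. All 3 comparisons were used to choose the genes, so the values below describe them and no test is made on them.

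RNA was taken from the last 1 cm of the roots of seedlings 7 days old, in 8 libraries that form 4 groups of 2. The groups are bin2-1, the double mutant bzr1-D/bin2-1, wild type (Columbia) treated with 100 µM ABA for 3 h, and untreated wild type. The labels do not say whether the mutants received ABA. Each group has a first library and one named as its repeat, and whether the repeat used other plants is not stated. Each of the 3 tables holds 1 value per group, so no replicate error stands beside any value, and the depth of the libraries is unknown. Root tips hold many cell types, and a higher level may reflect more cells of a type or more RNA per cell, which cannot be told apart here.

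Brassinosteroids are growth hormones that are perceived at the cell surface. Without them the GSK3-like kinase BIN2 phosphorylates BZR1 and related transcription factors and keeps them from acting on their target genes. The bin2-1 allele makes a hyperactive kinase and gives dwarf plants, while bzr1-D makes a stabilised BZR1 and overcomes part of the signalling block. ABA (abscisic acid) is a stress hormone that slows root growth. Both alleles change the protein rather than remove the transcript, so transcript levels do not check the genotypes.

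Genes raised in bin2-1 fell into several classes, of which the 160 were the most numerous at the limits used. Without the members listed at 0 in wild type, 147 remained. With narrower limits on the other ratios the rule found 62 genes. The other classes were not counted again at those settings, so the rank is given for the limits used alone. In all, 695 genes reached the ratio of 3 and 5 FPKM, which is 4.43% of the genes with 5 FPKM, and the full rule was met by 1.02%. Of the 695, 23.0% met the full rule. In another 133 genes the ABA ratio was within the limits and bzr1-D/bin2-1 was below bin2-1. In 134 genes ABA-treated roots were above untreated roots while bzr1-D/bin2-1 stayed near bin2-1, and in 143 genes both departures occurred together. bzr1-D/bin2-1 was above bin2-1, at a level ABA ratio, in 28 genes. The rule draws lines through continuous values, as the plot of the 3 ratios shows.

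**Figure D1:**
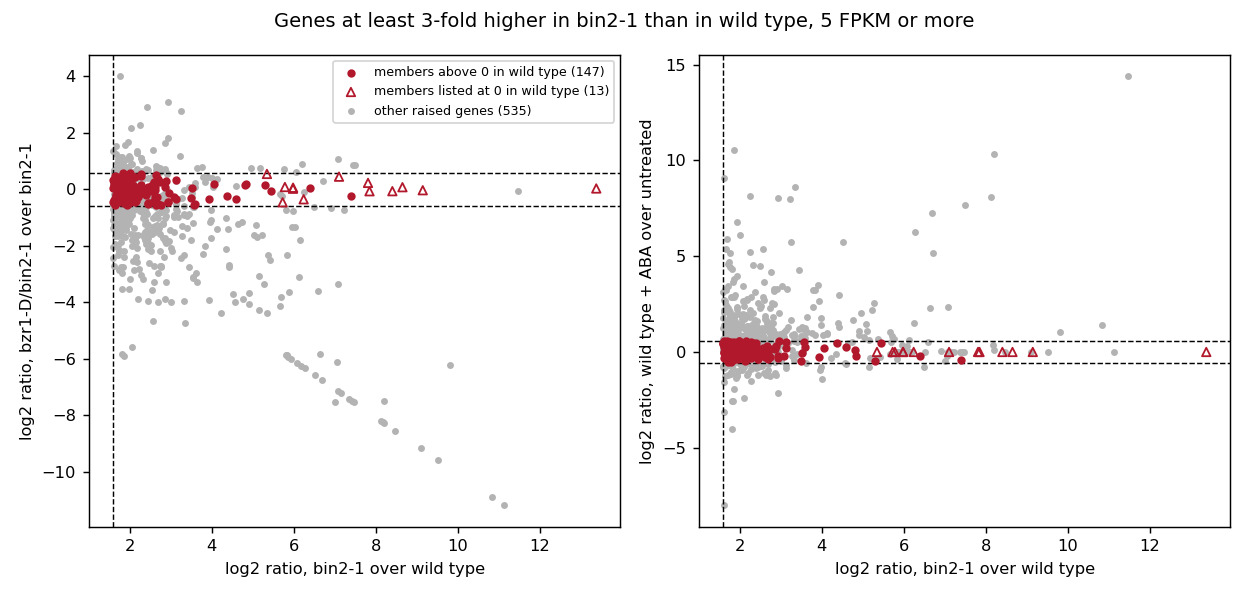
Each point is 1 of the 695 genes at least 3-fold higher in bin2-1 than in wild type. The x axes give the log2 ratio of bin2-1 over wild type, and the y axes give the log2 ratio of bzr1-D/bin2-1 over bin2-1 (left) and of ABA-treated over untreated wild type (right). Red points are the 147 members above 0 in wild type, open triangles are the 13 members listed at 0 there, and grey points are the other 535 genes. Dashed lines mark the limits of the rule, and the cloud of points is continuous across them.

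Genes close to a limit show how narrow the choice was. Among the members, the lowest bin2-1 ratios were 3.00 for AT3G28200, a peroxidase family gene, and 3.03 for TBL14. Just outside lay AT4G35270 at 2.999 and KMS2 at 2.997. At the upper ABA limit, CYP79B2 was inside at 1.49975 and the heat shock protein gene AT3G09440 at 1.498, and SDR4 (1.504) and AT1G77680 (1.504) were outside. At the lower ABA limit, CRF11 (0.686) and BOR1 (0.7005) were inside, and AT3G63380 (0.653) and AT5G51490 (0.650) were outside. For bzr1-D/bin2-1 over bin2-1, UGT72E3 (1.492) and CML43 (1.474) were inside the upper limit, and AT1G61930 (1.504) and AT5G56747 (1.507) were outside. At the lower limit RPL3B (0.669) and AT1G73580 (0.669) were inside, and AT4G29690 (0.665) and ATSDI1 (0.657) were outside. CRF11 and CAB1 passed the 5 FPKM minimum with highest values of 5.13 and 5.14 FPKM, and AT5G48660 (4.991) and AT5G56910 (4.968) missed it.

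The typical member was a weakly expressed gene in wild type that reached a medium level in both mutants. The median level of the 160 was 19.0 FPKM in bin2-1, against 3.78 FPKM in wild type in the same table. It was 19.4 FPKM in bzr1-D/bin2-1 and 3.94 FPKM in ABA-treated wild type, each in its own table. Over the 15705 genes with 5 FPKM the medians were 16.6 FPKM in bin2-1 and 17.2 FPKM in wild type. In bin2-1, 18 members reached 100 FPKM, and 94 were under 5 FPKM in wild type, 28 of them under 1 FPKM. The other 535 raised genes had medians of 15.0 FPKM in bin2-1 and 2.25 FPKM in wild type.

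Most members were 3 to 6 times higher in bin2-1. Of the 147 members above 0 in wild type, 73 had a bin2-1 ratio of 3 to 4, 42 of 4 to 6, 18 of 6 to 10 and 14 of 10 or more. Their median ratio was 4.0, and it was 4.16 over all 160. In the double mutant 93 of the 160 lay between 0.8 and 1.2 times bin2-1. Values below bin2-1 were the more frequent, with 96 members below a ratio of 1 and 64 above, and a median of 0.951. Multiplied through the 2 tables, bzr1-D/bin2-1 was at a median of 4.28 times wild type, at least 2.08 times in every member and at least 3 times in 129. With ABA, 89 members had a ratio above 1 and 58 below, with a median of 1.04, and the 13 members listed at 0 had a ratio of 1 by construction.

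The authors' own tests were read beside these ratios. In the authors' deposited table, 155 of the 158 tested members were higher in bin2-1 at q under 0.05, where 25.4% of all tested genes were higher and 25.6% lower. For bzr1-D/bin2-1 against bin2-1, 39 of 159 passed in the authors' deposited table, 30 lower and 9 higher, where 24.8% of all tested genes passed, 12.8% lower and 11.9% higher. For ABA, 15 of 141 passed in the authors' deposited table, 14 higher and 1 lower, where 24.6% of all tested genes passed, 15.1% higher and 9.51% lower. Nothing is read from these shares, since the rule used the same contrasts. The 9 members above bin2-1 in the double mutant included UGT72E3 (q = 0.000451 in the authors' deposited table), CML43, ENODL19 and the RAB GTPase gene RABA3. The boron exporter gene BOR1 was the 1 member lower with ABA, with 4.99 FPKM in ABA-treated and 7.17 FPKM in untreated roots (q = 0.013 in the authors' deposited table).

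Of 37 families counted by annotated product, expansins held the most members after the uncharacterized proteins. Expansins loosen the cell wall at acidic pH and let turgor drive cell enlargement, and EXPA7 is known from growing root hairs. Of the 21 expansin genes with 5 FPKM (by annotated product), 6 were members, which is 3.75% of the members against 0.134% of the genes with 5 FPKM. No expansin by this wording was among the 133 genes lowered with bzr1-D, the 134 raised with ABA or the 28 raised further with bzr1-D. The 300 bases upstream of 3 of these genes are shown because they cover the members with the largest ratios and the root hair gene. They are from the RefSeq TAIR10.1 genome, on the + strand of chr1:4276205-4276504, chr3:5190254-5190553 and chr4:700266-700565, and each ends at the base before the annotated start. Capitals mark matches on either strand to CGTGNG, the pattern used here for the BR response element bound by BZR1, and to CANNTG, the E-box. N stands for any base, so CGTGNG can also match letters that are not that element.
EXPA7: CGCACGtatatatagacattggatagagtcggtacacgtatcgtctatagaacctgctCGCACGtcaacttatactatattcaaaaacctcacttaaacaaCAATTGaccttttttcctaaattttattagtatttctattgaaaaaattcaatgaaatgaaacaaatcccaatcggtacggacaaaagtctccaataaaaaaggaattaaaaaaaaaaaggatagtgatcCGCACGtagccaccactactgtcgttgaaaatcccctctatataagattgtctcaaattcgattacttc
EXPA12: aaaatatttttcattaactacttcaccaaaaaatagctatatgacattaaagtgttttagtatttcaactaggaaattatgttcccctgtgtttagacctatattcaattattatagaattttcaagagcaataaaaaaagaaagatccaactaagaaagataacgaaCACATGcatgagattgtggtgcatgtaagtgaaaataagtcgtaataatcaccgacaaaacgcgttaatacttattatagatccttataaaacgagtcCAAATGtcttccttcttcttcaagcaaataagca
EXPA17: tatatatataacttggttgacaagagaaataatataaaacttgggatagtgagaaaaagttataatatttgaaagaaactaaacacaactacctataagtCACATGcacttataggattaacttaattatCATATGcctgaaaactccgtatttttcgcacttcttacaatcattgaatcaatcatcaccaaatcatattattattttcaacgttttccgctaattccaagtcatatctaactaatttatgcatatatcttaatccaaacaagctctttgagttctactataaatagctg
The EXPA7 sequence held 3 matches to CGTGNG on the opposite strand (read as CGCACG) and 1 E-box. EXPA12 and EXPA17 held E-boxes alone, 2 in each.

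EXPA12 (AT3G15370, chromosome 3) was at 17.2 FPKM in bin2-1 and 0.297 FPKM in wild type, a ratio of 43.5. It stood at 17.2 FPKM in bzr1-D/bin2-1 against 17.9 FPKM in bin2-1, and at 0.423 FPKM with ABA against 0.278 FPKM without. EXPA17 (AT4G01630, chromosome 4) was at 10.7 FPKM in bin2-1 and 0.173 FPKM in wild type, a ratio of 39.6. Both genes were thus under 1 FPKM in wild type, with and without ABA, and over 10 FPKM in both mutants. At such low wild-type values the ratio depends on the 0.1 FPKM added.

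EXPA15 was at 45.2 FPKM in bin2-1 and 5.14 FPKM in wild type, and at 37.2 FPKM in bzr1-D/bin2-1 against 47.2 FPKM in bin2-1. EXPA8 was at 6.36 FPKM in bin2-1 and 0.908 FPKM in wild type, and at 8.41 FPKM in bzr1-D/bin2-1 against 6.63 FPKM in bin2-1. The most abundant expansin among the members was EXPA7, at 89.6 FPKM in bin2-1 and 18.4 FPKM in wild type, with 14.8 FPKM under ABA and 17.3 FPKM without it. EXPB3, a beta-expansin, was at 22.7 FPKM in bin2-1 and 6.51 FPKM in wild type, and at 26.7 FPKM in bzr1-D/bin2-1 against 23.7 FPKM in bin2-1.

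The alpha-expansin list puts the members other than EXPB3 in their family. Of its 19 genes, 16 had 5 FPKM. In the authors' deposited table, 14 of 16 tested were higher and none lower in bin2-1 at q under 0.05. Over all tested genes 25.4% were higher and 25.6% lower. Counted by annotated product, a set that also holds EXPB3, 14 of 21 tested expansins were higher and 4 lower in bin2-1. Summed over the list, alpha-expansin transcripts came to 657 FPKM in bin2-1 and 182 FPKM in wild type, each in the bin2-1 table, and to 721 FPKM in bzr1-D/bin2-1. A bin2-1 ratio of 3 was reached by 8 of them, of which 5 were members. EXPA9 missed the rule through ABA (166 FPKM in bin2-1 and 18.9 FPKM in wild type, ABA ratio 0.630), as did EXPA14 (67.2 FPKM in bin2-1 and 14.7 FPKM in wild type, ABA ratio 0.476). EXP3, annotated outside the expansin wording, missed it through bzr1-D, with 11.5 FPKM in bzr1-D/bin2-1 and 22.9 FPKM in bin2-1. EXPA10, not raised 3-fold in bin2-1, had the lowest bzr1-D ratio of the 16, at 0.941 FPKM in bzr1-D/bin2-1 against 6.61 FPKM in bin2-1.

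**Figure D2:**
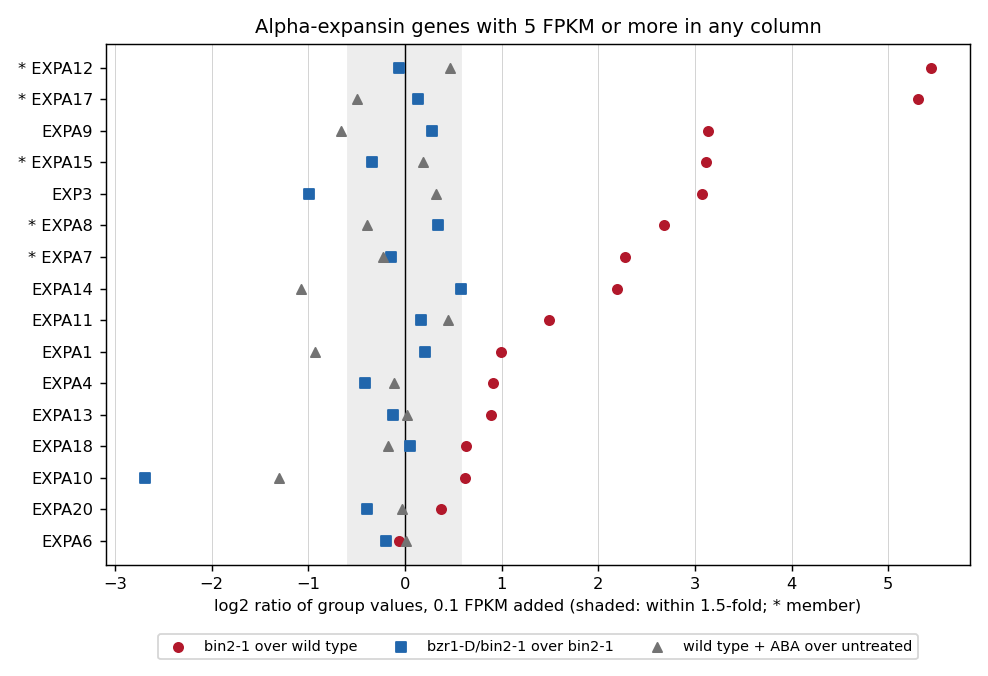
The log2 ratios of the 16 alpha-expansin genes with at least 5 FPKM in any column, ordered by bin2-1 over wild type (red circles), with bzr1-D/bin2-1 over bin2-1 as blue squares and ABA-treated over untreated wild type as grey triangles. Asterisks mark the 5 members, and the shaded band is 1.5-fold either side of no change. The red circles lie right of 0 for 15 of the 16 genes, and most blue squares lie inside the band.

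Other cell wall genes among the members came from several families. RGP1, an enzyme that makes the arabinose donor for wall polysaccharides, was the most abundant protein-coding member, with 798 FPKM in bin2-1 and 248 FPKM in wild type. Its level in bzr1-D/bin2-1 was 761 FPKM against 832 FPKM in bin2-1. AT2G43880, a pectin lyase-like gene, was at 30.5 FPKM in bin2-1 and 1.74 FPKM in wild type, a ratio of 16.7. Of the genes named after their values were seen, the glucanase GH9C2 was at 43.1 FPKM in bin2-1 and 6.73 FPKM in wild type. XTH13, which cuts and rejoins xyloglucan, was at 16.1 FPKM in bin2-1 and 3.58 FPKM in wild type, and it was 1 of 21 genes of its family with 5 FPKM. The median log2 ratio of that family in bin2-1 was -1.06, and XTH13 stands apart from it because the rule chose raised genes. At q under 0.05 in the authors' deposited table, 6 of 25 tested genes of the family were higher in bin2-1 and 16 lower. Over all tested genes 25.4% were higher and 25.6% lower.

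Genes annotated as SAUR or other auxin-responsive proteins supplied 5 members of 49 with 5 FPKM, and all 5 members were SAUR-like. That is 3.13% of the members against 0.312% of the genes with 5 FPKM. The same wording held 1 of the 133 genes lowered with bzr1-D, 1 of the 134 raised with ABA and 2 of the 28 raised further with bzr1-D. Small auxin-up RNAs are short proteins, some of which promote cell expansion by activating plasma membrane proton pumps. AT5G10990 (SAUR69 in the RefSeq synonyms) was at 29.1 FPKM in bin2-1 and 0.937 FPKM in wild type, and at 33.7 FPKM in bzr1-D/bin2-1 against 30.3 FPKM in bin2-1. AT1G75590 (SAUR52) was at 16.4 FPKM in bin2-1 and 0.699 FPKM in wild type. The other 3 were higher in wild type to begin with. AT3G60690 (SAUR59) was at 19.6 FPKM in bin2-1 and 3.44 FPKM in wild type, and AT1G16510 (SAUR41) at 17.2 FPKM in bin2-1 and 3.08 FPKM in wild type. AT3G12830 (SAUR72) was at 35.3 FPKM in bin2-1 and 9.75 FPKM in wild type. These 3 were also lower in the double mutant than in bin2-1 at q under 0.05 in the authors' deposited table, by log2 changes of -0.50, -0.48 and -0.46, within the 1.5-fold limit. In all 15 genes of this wider wording, which is not limited to SAUR-like genes, reached a bin2-1 ratio of 3. Of these, 10 departed with ABA or bzr1-D. No gene of the list of auxin response and lateral root genes was a member.

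**Figure D3:**
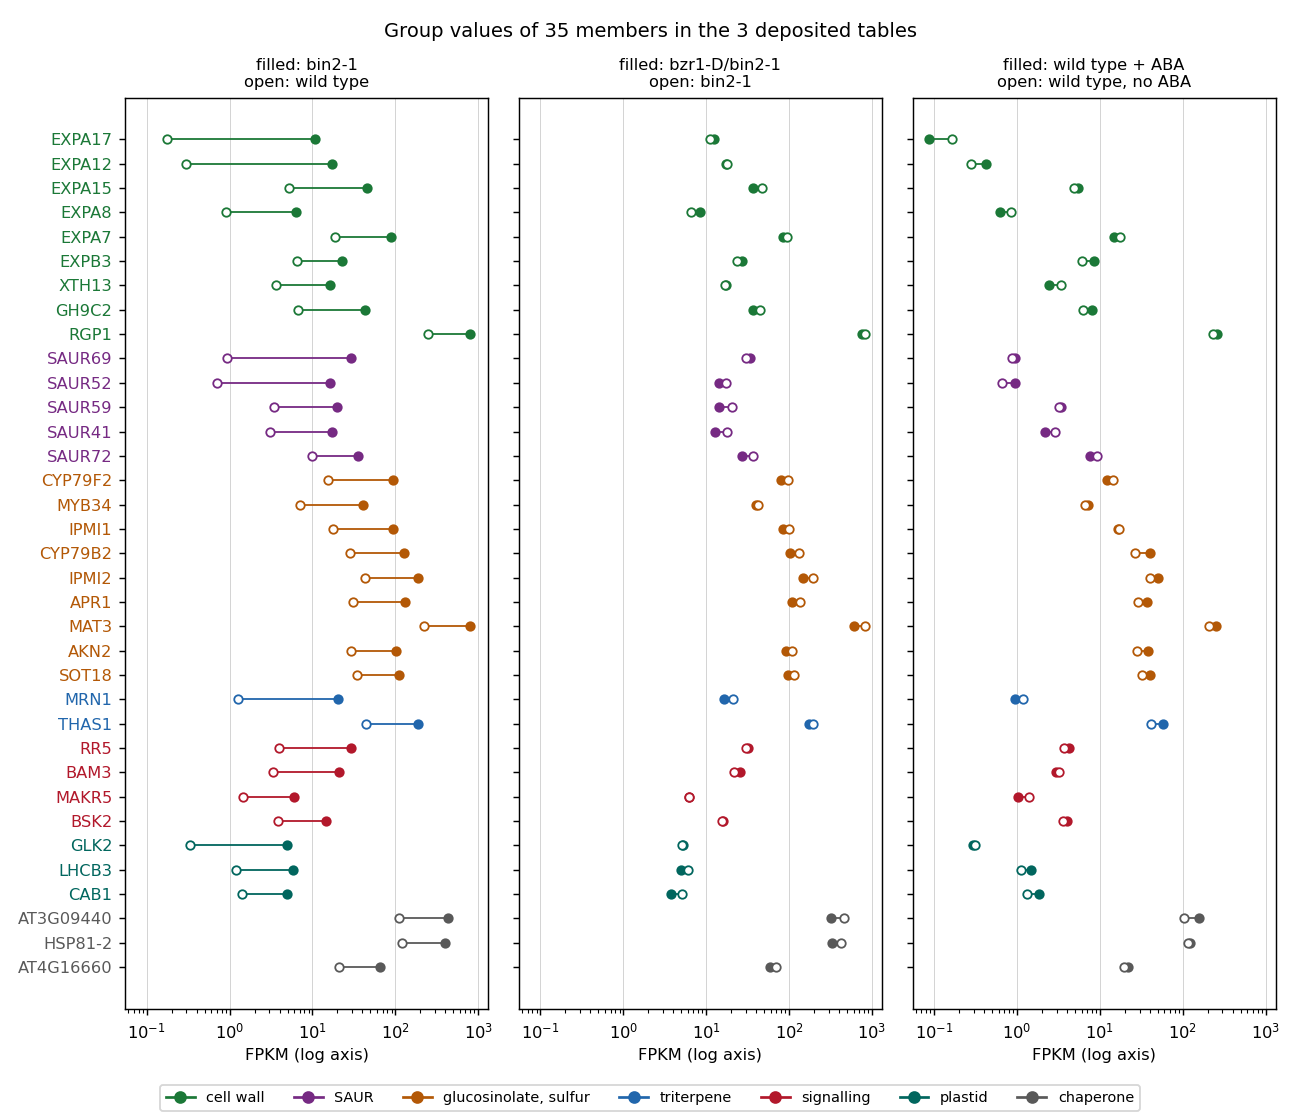
Group values in FPKM on a log axis for 35 members, coloured by group of genes, in the 3 tables. Filled points are bin2-1 (left), bzr1-D/bin2-1 (middle) and ABA-treated wild type (right), and open points are the groups they are set against, wild type, bin2-1 and untreated wild type. The pairs are far apart on the left and close together in the middle and on the right, as the rule requires, and EXPA17, EXPA12, EXPA8, SAUR69, SAUR52 and GLK2 are below 1 FPKM in wild type.

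Genes that make glucosinolates, the sulfur-rich defence compounds of this plant family, formed the next group. Aliphatic glucosinolates are made from methionine, whose chain is first lengthened and then oxidised, joined to sulfur and glucose, and sulfated. Of 28 listed genes 24 had 5 FPKM, 11 reached a bin2-1 ratio of 3 and 6 were members. In the authors' deposited table, 20 of 26 tested were higher and 1 lower in bin2-1, where 25.4% of all tested genes were higher and 25.6% lower. For bzr1-D/bin2-1 against bin2-1 the authors' deposited table had 14 of 26 lower and none higher, where 12.8% of all tested genes were lower and 11.9% higher. The list was drawn up after the values were seen.

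The 6 members sat at several steps. IPMI1 and IPMI2 encode small subunits of the isomerase of chain elongation. IPMI1 was at 94.5 FPKM in bin2-1 and 17.9 FPKM in wild type. IPMI2 was at 185 FPKM in bin2-1 and 42.6 FPKM in wild type, and at 147 FPKM in bzr1-D/bin2-1 against 193 FPKM in bin2-1 (q = 0.0193 in the authors' deposited table). CYP79F2, which oxidises the elongated amino acids, was at 93.7 FPKM in bin2-1 and 15.3 FPKM in wild type, with 12.1 FPKM under ABA and 14.4 FPKM without. AT2G31790, a glucosyltransferase gene, was at 41.5 FPKM in bin2-1 and 12.0 FPKM in wild type. SOT18, the sulfotransferase of the last core step, was at 109 FPKM in bin2-1 and 34.3 FPKM in wild type. AKN2, which makes the sulfate donor, was at 103 FPKM in bin2-1 and 29.4 FPKM in wild type.

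Other genes of the same pathway divided between the classes. SOT17, GSTF11 and UGT74B1 were also above a ratio of 3 in bin2-1, but bzr1-D/bin2-1 over bin2-1 was 0.506, 0.618 and 0.638, below the limit. CYP83A1 (100.3 FPKM in bin2-1 and 33.1 FPKM in wild type) failed on ABA, at a ratio of 0.574. The chain elongation genes MAM1 and BCAT4 and the regulator MYB28 were near level in bin2-1, at ratios of 0.895, 1.12 and 1.17. With ABA, MYB28 was at 1.60 FPKM against 19.0 FPKM without. Of the 25 listed genes tested with ABA, 4 were higher and 4 lower at q under 0.05 in the authors' deposited table, where 15.1% of all tested genes were higher and 9.51% lower.

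**Figure D4:**
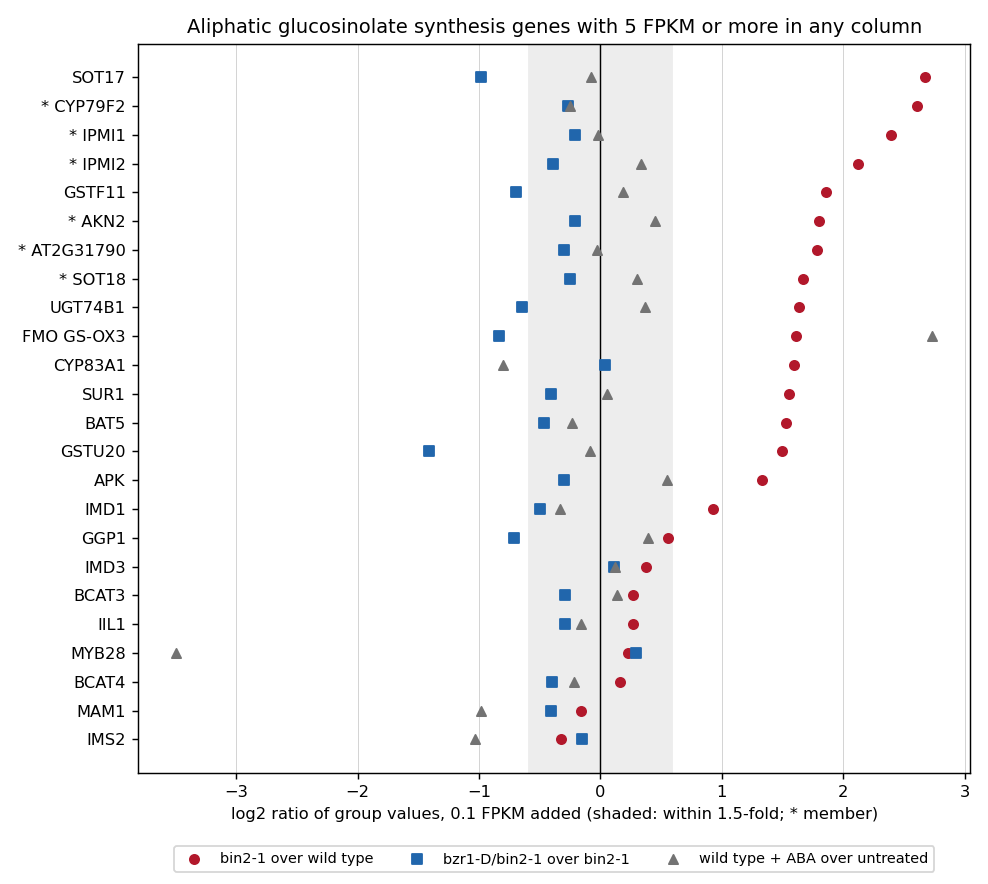
The log2 ratios of the 24 aliphatic glucosinolate genes with at least 5 FPKM in any column, ordered by bin2-1 over wild type (red circles), with bzr1-D/bin2-1 over bin2-1 (blue squares) and ABA-treated over untreated wild type (grey triangles). Asterisks mark the 6 members and shading marks 1.5-fold. Most blue squares lie left of 0, at a list median of -0.35, and MYB28 has the lowest triangle.

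Tryptophan-derived glucosinolates and sulfur supply had members too. MYB34, a regulator of indolic glucosinolate genes, was at 40.2 FPKM in bin2-1 and 6.99 FPKM in wild type, and at 40.3 FPKM in bzr1-D/bin2-1 against 41.9 FPKM in bin2-1. CYP79B2, which turns tryptophan into its aldoxime, was at 126 FPKM in bin2-1 and 28.3 FPKM in wild type. Its paralog CYP79B3 went the other way, with 34.98 FPKM in bin2-1 and 78.6 FPKM in wild type. From the list of camalexin and indolic glucosinolate genes these were the 2 members of 12 with 5 FPKM. From the sulfur deficiency list APR1 alone was a member of 13 with 5 FPKM. APR1, which reduces activated sulfate, was at 131 FPKM in bin2-1 and 30.6 FPKM in wild type, and 9 genes of that list reached a bin2-1 ratio of 3. MAT3, which makes S-adenosylmethionine from methionine, was at 786 FPKM in bin2-1 and 220.0 FPKM in wild type, and at 610.2 FPKM in bzr1-D/bin2-1 against 820 FPKM in bin2-1.

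Triterpenes of the root are made by enzymes whose genes lie in clusters on chromosome 5, and each cluster had its first enzyme among the members. Oxidosqualene cyclases fold a common precursor into marneral (MRN1) or thalianol (THAS1), and the neighbouring genes modify the product. The 300 bases upstream of both genes are shown for comparison between the clusters, from RefSeq TAIR10.1 on the + strand of chr5:17053153-17053452 and chr5:19456537-19456836, with capitals for CANNTG.
MRN1: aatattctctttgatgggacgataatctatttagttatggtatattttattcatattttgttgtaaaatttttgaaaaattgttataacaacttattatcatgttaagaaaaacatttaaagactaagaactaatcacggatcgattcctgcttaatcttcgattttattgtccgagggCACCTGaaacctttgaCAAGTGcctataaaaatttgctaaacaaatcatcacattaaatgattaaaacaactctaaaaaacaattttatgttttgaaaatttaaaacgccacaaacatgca
THAS1: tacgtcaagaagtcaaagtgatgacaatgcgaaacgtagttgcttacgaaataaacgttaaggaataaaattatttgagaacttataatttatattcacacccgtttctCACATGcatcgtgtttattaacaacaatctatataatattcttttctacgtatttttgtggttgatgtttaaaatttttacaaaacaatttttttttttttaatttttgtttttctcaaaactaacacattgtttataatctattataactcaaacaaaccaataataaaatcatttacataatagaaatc
MRN1 had 2 matches to CANNTG and THAS1 had 1, and neither held CGTGNG.

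MRN1 (AT5G42600) was at 20.4 FPKM in bin2-1 and 1.254 FPKM in wild type, and at 16.5 FPKM in bzr1-D/bin2-1 against 21.3 FPKM in bin2-1. With ABA it was at 0.949 FPKM against 1.18 FPKM without. The marneral cluster genes CYP71A16 and CYP705A12 were raised with it in bin2-1, at ratios of 9.63 and 3.63, and missed the rule because their ABA ratios were 1.86 and 1.88. THAS1 (AT5G48010) was at 186 FPKM in bin2-1 and 44.2 FPKM in wild type, and at 176 FPKM in bzr1-D/bin2-1 against 194 FPKM in bin2-1. With ABA it was at 57.0 FPKM against 41.5 FPKM without (q = 0.0148 in the authors' deposited table), inside the limit at 1.37. In the thalianol cluster CYP705A5 and CYP708A2 were just over the ABA limit at 1.62 and 1.56. AT5G47980 failed on bzr1-D at 0.646, and AT5G47950 had a bin2-1 ratio of 1.66.

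**Figure D5:**
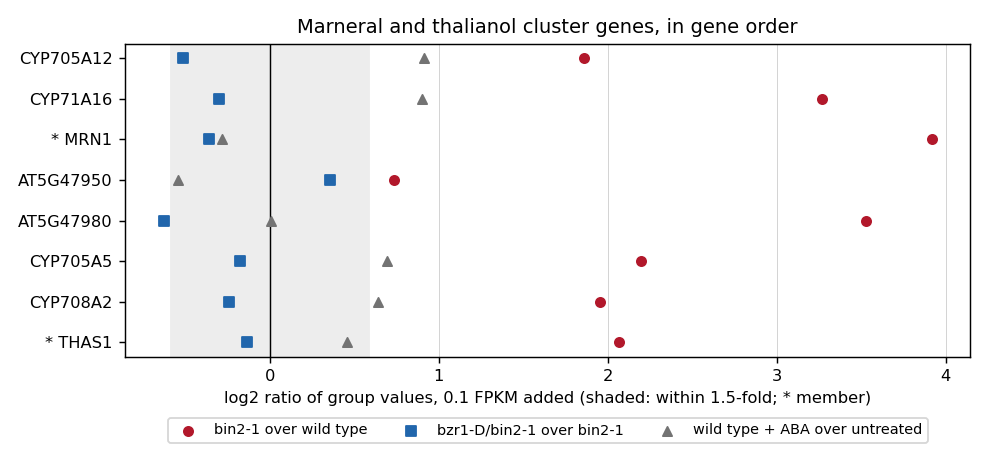
The log2 ratios of the 3 marneral and 5 thalianol cluster genes in gene order, with bin2-1 over wild type as red circles, bzr1-D/bin2-1 over bin2-1 as blue squares and ABA-treated over untreated wild type as grey triangles. Asterisks mark MRN1 and THAS1. All 8 circles lie right of 0, and 4 triangles lie right of the shaded 1.5-fold band.

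Signalling genes among the members were few and came from several pathways. RR5, a cytokinin-induced response regulator that dampens the cytokinin response, was at 29.1 FPKM in bin2-1 and 3.96 FPKM in wild type. It stood at 31.8 FPKM in bzr1-D/bin2-1 against 30.4 FPKM in bin2-1, and at 4.20 FPKM with ABA against 3.71 FPKM without. It was the 1 member of 13 cytokinin response genes with 5 FPKM. ARR3, ARR4, ARR6 and CKX3 were also above a ratio of 3 in bin2-1 and missed the rule with ABA ratios of 1.63 to 1.91. Their ratios of bzr1-D/bin2-1 over bin2-1 were 1.33, 0.894, 1.06 and 0.977, and ARR3 was higher in bzr1-D/bin2-1 at q = 0.0205 in the authors' deposited table. In the authors' deposited table, 12 of 18 tested genes of this list were higher in bin2-1 and 2 lower, where 25.4% of all tested genes were higher and 25.6% lower.

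BAM3 and MAKR5 act in the same root pathway, in which the peptide CLE45 restrains protophloem formation. BAM3 is the receptor kinase, and MAKR5 acts downstream of it. BAM3 was at 20.7 FPKM in bin2-1 and 3.37 FPKM in wild type, and at 25.7 FPKM in bzr1-D/bin2-1 against 21.6 FPKM in bin2-1. MAKR5 was at 5.99 FPKM in bin2-1 and 1.47 FPKM in wild type, and at 6.23 FPKM in bzr1-D/bin2-1 against 6.24 FPKM in bin2-1. In this pathway, listed after the values were seen, CLE45, BRX, CRN and CLV2 had bin2-1 ratios of 1.09, 1.17, 0.845 and 0.996, and OPS had 2.13. BSK2, of the brassinosteroid-signalling kinase family, was at 14.7 FPKM in bin2-1 and 3.86 FPKM in wild type. No gene of the list of brassinosteroid synthesis and signalling, which does not hold BSK2, was a member. The list of ABA response genes also held none. Its median log2 ABA ratio was 5.32, and the rule leaves out genes that ABA moves, so this absence carries no information. Of the 466 protein kinase genes with 5 FPKM, counted by annotated product, 5 were members. That is 3.13% of the members against 2.97% of the genes with 5 FPKM, so the shares were close for this wording. The wording misses some kinase genes, BSK2 among the members. The 5 were led by AT5G46080 (5.06 FPKM in bin2-1 and 0.678 FPKM in wild type), BAM3 and AT3G07070 (11.7 FPKM in bin2-1 and 2.34 FPKM in wild type).

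Plastid and chlorophyll genes were present at low levels. GLK2, a transcription factor that promotes chloroplast development, was at 4.88 FPKM in bin2-1 and 0.333 FPKM in wild type, and at 5.19 FPKM in bzr1-D/bin2-1 against 5.09 FPKM in bin2-1. The antenna protein gene LHCB3 was at 5.76 FPKM in bin2-1 and 1.19 FPKM in wild type, and CAB1 at 4.93 FPKM in bin2-1 and 1.40 FPKM in wild type. These were 3 members of 8 green tissue genes with 5 FPKM, and no other gene of that list reached a ratio of 3 at that level. LIL3:2, a light-harvesting-like gene named after its values were seen, was at 13 FPKM in bin2-1 and 1.01 FPKM in wild type. The green tissue list summed to 63.5 FPKM in bin2-1 and 35.6 FPKM in wild type, and 7 of its 18 genes were under 1 FPKM in every column. The Rubisco gene RBCS1A was at 2.48 FPKM in bin2-1 and 2.85 FPKM in wild type. The part of green tissue in the levels of GLK2, LHCB3 and CAB1 was not tested.

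Chaperones and a pyrophosphatase were among the 6 most abundant members, along with the 18S ribosomal RNA gene AT3G41768, RGP1 and MAT3. AT3G09440, an Hsp70, was at 435 FPKM in bin2-1 and 110.2 FPKM in wild type, and at 321 FPKM in bzr1-D/bin2-1 against 453 FPKM in bin2-1. HSP81-2, a cytosolic Hsp90, was at 401 FPKM in bin2-1 and 121 FPKM in wild type. AT4G16660, another Hsp70 family gene, was at 65.9 FPKM in bin2-1 and 20.8 FPKM in wild type. These 3 of 110 heat shock protein genes with 5 FPKM went against the family, whose median log2 ratio in bin2-1 was -0.25. PPa5, a soluble pyrophosphatase, was at 391 FPKM in bin2-1 and 106 FPKM in wild type. Of 76 UDP-glycosyltransferase genes with 5 FPKM 5 were members, led by AT4G19460, UGT85A2 and UGT76D1. That is 3.13% of the members against 0.484% of the genes with 5 FPKM. The genes raised with ABA held as many, 5 or 3.73% of that class. UGT85A2 was at 179 FPKM in bin2-1 and 46.2 FPKM in wild type, and at 211 FPKM in bzr1-D/bin2-1 against 186 FPKM in bin2-1.

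Apart from these groups, 13 members were listed at 0 in all 3 wild-type columns, so no fold is given for them. The highest was the 18S ribosomal RNA gene AT3G41768, at 1068 FPKM in bin2-1, 1131 FPKM in bzr1-D/bin2-1 and listed at 0 in both wild-type groups (q = 1 for bin2-1 in the authors' deposited table). Ribosomal RNA is present in every cell, so a listing at 0 cannot be read as absence. SNOR111 was at 56.6 FPKM in bin2-1, AT5G51620 at 40.1 FPKM and the histone gene AT3G53650 at 33.8 FPKM. Of the genes annotated as uncharacterized protein, AT4G31441 was at 22.9 FPKM in bin2-1, AT4G37095 at 22.4 FPKM and AT3G43690, a pseudogene, at 13.7 FPKM. Of the genes annotated as other RNA, AT5G44569 was at 7.46 FPKM in bin2-1, AT3G27990 at 6.22 FPKM and AT3G29644 at 5.41 FPKM. Of the 13, 10 passed q under 0.05 for bin2-1 in the authors' deposited table. Across all genes, 35 were at 0 in the wild-type columns and at 5 FPKM or more in bin2-1. The reverse, 0 in bin2-1 and 5 FPKM or more in wild type, held for 20 genes, of which 12 were also at 0 in bzr1-D/bin2-1. AT3G43740 (22.5 FPKM in bin2-1 and 0.0348 FPKM in wild type) and AT3G47680 (9.63 FPKM in bin2-1 and 0.0151 FPKM in wild type) were close to 0 in wild type. Neither passed q under 0.05 for bin2-1 in the authors' deposited table (q = 0.321 and 0.337), nor did AT4G31441 (q = 0.110).

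Gene structure and position were not used by the rule. Among 153 protein-coding members 32.0% had 1 exon, against 14.7% of the protein-coding genes with 5 FPKM. The same share was 36.0% among the other raised genes, 35% among those lowered with bzr1-D and 40.5% among those raised with ABA, so a high share of genes with 1 exon was common to the raised genes. Chromosome 5 held 31.2% of the members against 23.7% of the genes with 5 FPKM, and chromosome 3 held 25% against 19.9%. The 1-Mb window with most members was chromosome 5 from 17000001 to 18000000, with 13 members of 152 genes with 5 FPKM, against a median of 1 member per window over 121 windows. That is 8.55% of its genes with 5 FPKM, where 1.02% of all such genes were members. MRN1, GLK2, NPQ6, CML43, SPL2 and 2 genes listed at 0 in wild type were among the 13. In the window 25 genes, or 16.4%, reached the bin2-1 ratio of 3, where 4.43% of all genes with 5 FPKM did. The share of raised genes was higher in other windows, such as 18.7% (17 of 91) on chromosome 3 from 10000001 to 11000000.

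Gene order was compared between the classes of raised genes. In the order of all annotated genes 5 members, or 3.13%, had a member as neighbour, against 12 of 130 genes lowered with bzr1-D (9.23%), 16 of 133 raised with ABA (12.0%) and 58 of all 527 other raised genes (11.0%), a larger set with more possible neighbours. In the order of genes with 5 FPKM alone, 9 members had a member as neighbour (5.63%), and the difference was not tested. The pair AKN2 (chromosome 4, 18519599 to 18521605) and CYP79B2 (18525042 to 18527602) joined a sulfate donor enzyme and an indolic enzyme. The other neighbours were AT5G51620, AT5G51630 and YLS7 on chromosome 5, AT5G51620 and AT5G51630 both listed at 0 in wild type. AT5G51630 overlaps YLS7 on the opposite strand, so reads of the one may be counted with the other. In all, 28 members overlapped another annotated gene, among them CAB1 with NRPA2 and EXPA7 with AT1G12570, and no source used here says whether the counting used strand.

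The 300 bases upstream of the members were also searched for 8 short motifs on both strands. CGTGNG was found in 18.8% of the 160 members, 14.9% of the genes with 5 FPKM and 13.8% of all 32809 genes with such a sequence. In the other raised classes the share was 16.9% of the genes lowered with bzr1-D and 17.3% of those raised with ABA. It was 22.2% of the 27 genes with such a sequence that were raised further with bzr1-D. The E-box CANNTG, which contains every G-box, was in 62.5% of the members and 62.3% of all genes, and the G-box CACGTG in 6.88% and 6.43%. ACGTGNC, the core of the ABA response element, can share letters with the G-box and with CGTGNG. It was in 11.9% of the members, 12.8% of the genes raised with ABA, 10.9% of the genes with 5 FPKM and 8.63% of all genes. TATAAA was in 58.1% of the members, 52.5% of the genes with 5 FPKM and 51.0% of all genes. Its share was close to that of the members in the genes lowered with bzr1-D (58.5%) and in those raised with ABA (57.9%). TTGACN was in 45.6% of the members and 49.9% of all genes, and TGTCTC in 10.6% of the members and 12.9% of all genes. GCCGCC was in 0 of 160 members and in 2.35% of all genes. None of these differences was tested. A match describes letters in these sequences and does not show a bound site.

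Cell type lists gave the setting of these values. Markers of the quiescent centre and meristem summed to 134 FPKM in bin2-1 and 138 FPKM in wild type. Those of the stele summed to 163 FPKM in bin2-1 and 162 FPKM in wild type. For the endodermis and cortex the sums were 206 FPKM in bin2-1 and 285 FPKM in wild type. For the root cap they were 56.8 FPKM in bin2-1 and 77.7 FPKM in wild type. At q under 0.05 in the authors' deposited table, 3 of 10 tested quiescent centre and meristem markers were higher in bin2-1 and 2 lower. The counts were 4 and 2 of 11 for the stele, 0 and 2 of 6 for endodermis and cortex, and 2 and 3 of 5 for the root cap. Markers of the non-hair epidermis summed to 72.5 FPKM in bin2-1 and 92.9 FPKM in wild type, with 2 of 6 tested higher and 3 lower. Root hair genes summed to 941 FPKM in bin2-1 and 957 FPKM in wild type. EXPA7 was the 1 member among the 16 of them with 5 FPKM. Of 17 root hair genes tested, 9 were higher in bin2-1 and 5 lower at q under 0.05 in the authors' deposited table. Over all tested genes 25.4% were higher and 25.6% lower. A level sum can thus hide opposite changes. Of the 25 lists drawn up first, 19 held no member. Among them were nitrate transport, jasmonate, ethylene, salicylic acid, gibberellin, iron, phosphate, suberin, Casparian strip and secondary wall. Only 1.02% of the genes with 5 FPKM met the rule and the lists are short, so nothing is read from these absences. The suberin list also had a median log2 ABA ratio of 2.19, beyond the limit of the rule.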

How the data were processed

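RNA-seq of root tips was analysed from 3 tables, each with 1 value per group for 33557 genes. Reads were processed with TopHat and Cufflinks against TAIR10, per the submitters' processing notes, which carry no version numbers. The authors' deposited values were taken to be FPKM, since Cufflinks is named in those notes and the 6 columns sum to different totals, from 960451 to 1148750. Each p-value and q-value is the authors' own, and no source used here names their test. The 2 libraries of a group were already combined, so no replicate spread or test over libraries was possible, and depth is unknown.

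The rule and all counts were computed with Python 3.11.15 and pandas 2.3.3, and the rule was tested on simulated data. Wild-type values differed between tables by a factor of 0.938 and bin2-1 values by 1.04, so levels are compared within a table. Ratios carry 0.1 FPKM on both values, so they understate changes of low genes. A gene counts as tested where the deposited p-value is below 1. Names, gene order and upstream sequences come from RefSeq TAIR10.1, matched by locus identifier (32810 of 33557, and all 160 members). Paralogs such as CYP79F1 and CYP79F2, or the antenna protein genes, may share reads.

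The members and the gene lists were chosen with earlier results of these data known, and 4 lists (aliphatic glucosinolates, marneral, thalianol and protophloem) after seeing these values. Named genes are the 10 members with the largest bin2-1 ratio, the 6 with the highest FPKM, all members in a list, the leading 3 of each family with 3 or more members, neighbouring members and the 2 genes nearest each limit. ADC1, NIT3 and other members are not described singly. GH9C2, XTH13, BSK2, LIL3:2, NPQ6, CML43, SPL2, BOR1, ENODL19, RABA3, AT1G16510 and AT3G12830, where outside that rule, and the genes that are no members were named after their values were seen. Alternatives were other added values, minima and limits, centring, the deposited q, and other backgrounds for neighbours and motifs.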

Additional observations from a re-analysis of the deposited data

How the results depend on the processing

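The number of genes meeting the rule was 160 and moved most with the limits themselves. It was 597 at a bin2-1 ratio of at least 2 and 87 at 4, 62 with narrower limits on the other ratios and 320 with limits of 2-fold, and 286 with no minimum FPKM. It stayed within 1.5 times of 160 with the other settings. With 1 FPKM added it was 159, of which 126 were among the 160, and with 0.01 FPKM added 162, of which 153 were. Centring each comparison gave 173 genes, including 159 of the 160. Asking for a deposited q under 0.05 in bin2-1 left 155, and asking for a q of at least 0.05 in the other comparisons left 110. The median log2 ratio of bin2-1 over wild type was 2.06. It was 2.07 with 1 FPKM added, 2.04 with 0.01 FPKM added, 2.09 with a minimum of 10 FPKM, 2.15 with a minimum of 1 FPKM, and 2.00 without the 13 genes listed at 0 in wild type, a setting chosen after seeing the data. For bzr1-D/bin2-1 over wild type the median log2 ratio of 2.097 was 2.04 with 1 FPKM added and 1.96 without those 13 genes. Members with a neighbouring member numbered 5 among all genes and 9 among genes with 5 FPKM. Against a background of genes with 5 FPKM the excess of members with CGTGNG was 3.80 percentage points, against 4.95 over all genes, the excess with ACGTGNC was 1.01 against 3.25 points, and the differences for the G-box (-1.55 against 0.45) and E-box (-0.66 against 0.25) changed sign. No paired analysis was possible because each table holds 1 value per group, and leaving out a replicate was not possible for the same reason. Depth is unknown, so how it limits the low values cannot be given.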
